A study of Mus musculus with 6 samples.

Results

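The Hox genes are the homeobox genes of the HoxA, HoxB, HoxC and HoxD clusters. They were taken as the array rows named by a single gene symbol made of Hox, a cluster letter and a paralog number, and 37 genes met this rule, out of 19938 genes in all. HoxA was represented by 10 genes, and HoxB, HoxC and HoxD by 9 each. Hoxb8 shared its row with Hoxb7 and so was not among them. Each measured Hox gene had 1 row.

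Colon RNA of each mouse was hybridised to its own array (Affymetrix Mouse Gene 1.0 ST). The 3 mutant mice were VilCre;Ihhflox/flox, in which a Cre recombinase driven by the villin promoter deletes Indian hedgehog (Ihh), the main hedgehog ligand of colon epithelium, in gut epithelial cells. The 3 control mice are labelled wild type, and the labels do not say whether they carried a floxed allele or the Cre. Mutant and control of the same number were littermates, which gave 3 litters, harvested at postnatal day 12 by the design text or between days 9 and 12 by the growth protocol. All values below are log2 expression from RMA, where a difference of 1 is a doubling, and every change is mutant minus control with its standard error from limma. A gene passed the test when its limma p, adjusted over all genes by Benjamini-Hochberg, was under 0.05. Values of different genes come from different probes, so levels of single genes were not compared with each other. Levels were set only against all genes, to mark dim ones, and against array medians, for gut epithelium markers.

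Hox proteins are transcription factors that give cells their address along the body axis. Within a cluster the genes lie in the order of their paralog numbers, low numbers are active toward the head and high numbers toward the tail, and the hindgut carries the highest ones. In the gut, Hox genes are active mainly in the mesenchyme, muscle and neurons, and Hoxb13, Hoxd13 and Hoxa13 mark the distal colon and rectum. Cdx2, an intestinal homeobox factor of the related ParaHox family, acts upstream of several of them.

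Targets of hedgehog signalling fell. The receptor gene Ptch1 read 10.32, 10.46 and 10.54 in the controls and 9.06, 8.94 and 9.01 in the mutants (adjusted p = 0.00049), Hhip fell by 2.16 ± 0.13 and Gli1 fell by 0.78 ± 0.08. Ihh itself changed by -0.30 ± 0.09 (adjusted p = 0.139) and did not pass, although its groups did not overlap; which part of the transcript its probes cover was not determined. Gut epithelium markers had a mean log2 level between 11.53 and 11.70 in every mouse, against array medians between 7.10 and 7.14. Of 10 smooth muscle markers, 6 fell and 0 rose, where 2.11% of all genes fell and 1.66% rose. The mean log2 level of these markers was 11.44 to 11.51 in controls and 10.73 to 11.17 in mutants. Of 5 endothelial markers 4 fell and 0 rose, and of 8 fibroblast markers 1 fell and 0 rose. In whole tissue, fewer cells of a type and less RNA per cell cannot be told apart.

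No Hox gene passed the test in the 3 litters together. Of 37 measured, 0 fell and 0 rose, where 2.11% of all genes fell and 1.66% rose (3.77% in all). The ordinary paired test without shared variance also called 0 Hox genes, and 0 genes of any kind. At an unadjusted limma p under 0.05 there were 8 Hox genes, 3 lower and 5 higher, where 15.1% of all genes stood at that level, 8.03% lower and 7.05% higher. The Hox changes had a median of 0.00 and ran from -0.41 to 0.52, beside a median of 0.01 over all genes. The 95% intervals of all 37 changes lay within 1 log2 unit of 0, and those of 9 genes reached past 0.5 in at least one direction. Changes larger than a doubling thus lay outside these limma intervals, which lean on the variance shared over genes. Intervals from each gene's own 3 litters were not made, so a doubling is not excluded for widely varying genes such as Hoxd13.

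In the mean over the 3 litters the clusters had medians of different sign. In HoxA, 9 of 10 genes had a mean change below 0 (median -0.07), and in HoxB 8 of 9 had one above 0 (median 0.29). The HoxB median was -0.01 in litter 1, where 4 genes were higher and 5 lower, and 0.27 and 0.28 in litters 2 and 3. HoxC was split with 6 above and 3 below 0 (median 0.06), and 8 of its 9 genes lay among the dimmest 30% of all genes. HoxD had 4 above and 5 below 0 (median -0.01). By place in the cluster, the changes of the 7 genes of paralogs 1 to 3 had a median of 0.03, the 14 genes of paralogs 4 to 8 had 0.16, and the 16 genes of paralogs 9 to 13 had -0.05. The clusters differed within these places. Within paralogs 4 to 8 the medians were -0.07 in HoxA, 0.35 in HoxB, 0.18 in HoxC and 0.06 in HoxD. Within paralogs 9 to 13 they were -0.27, 0.06, 0.05 and -0.04. By litter, the median of paralogs 4 to 8 was -0.02, 0.20 and 0.17. These are descriptions, and the differences between clusters or places were not tested.

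**Figure D1:**
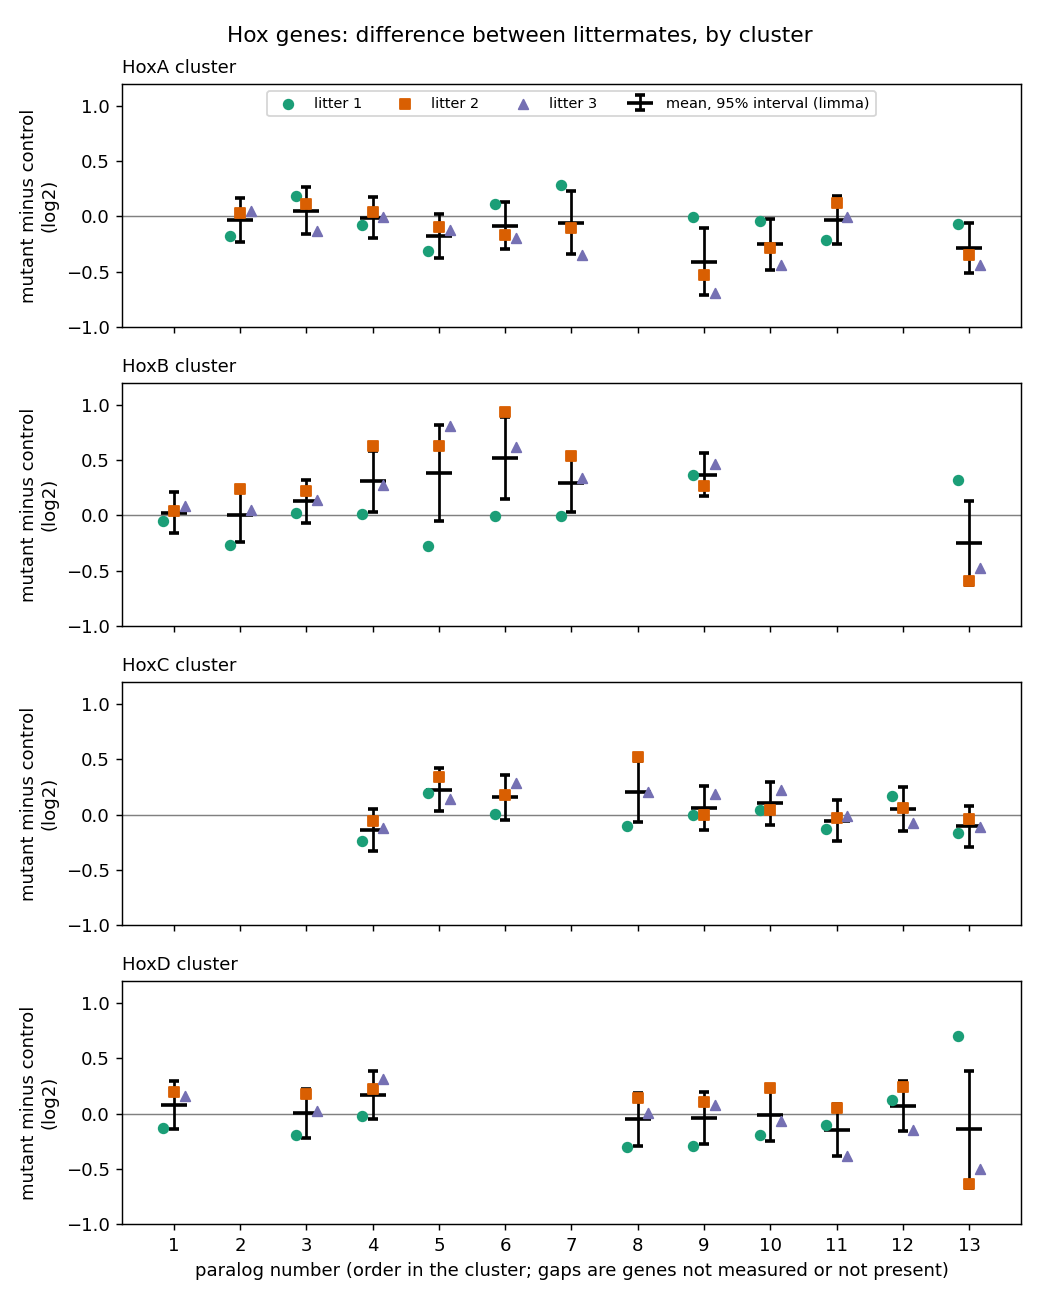
Mutant minus control difference (log2) of each measured Hox gene against its paralog number, 1 panel per cluster. Coloured symbols are the 3 litters, and the black bar with whiskers is the mean with its 95% interval from limma. Litters 2 and 3 lie above 0 for Hoxb4 to Hoxb7 and below 0 for Hoxb13 and Hoxd13, while litter 1 lies at or on the other side of 0 for most of these genes.

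The middle of the HoxB cluster held the largest changes above 0. In Hoxb6 the controls of litters 1, 2 and 3 read 8.01, 8.05 and 7.64 and the mutants 8.002, 8.99 and 8.26. Mutant 2 was the highest array, the mutant of litter 1 matched its littermate, and the groups overlapped. Its change was 0.52 ± 0.16, or 1.43-fold (95% interval 0.14 to 0.89, adjusted p = 0.151). Hoxb5, a factor of enteric neurons and gut mesenchyme, was 7.52, 7.61 and 7.11 in controls and 7.25, 8.23 and 7.92 in mutants. It was lower in the mutant of litter 1 and higher in those of litters 2 and 3, so the groups overlapped, with a change of 0.39 ± 0.19 (adjusted p = 0.402).

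Hoxb4 and Hoxb7 were nearly level in litter 1 and higher in the mutants of litters 2 and 3. Hoxb4 was 7.75, 7.60 and 7.76 in controls and 7.76, 8.23 and 8.04 in mutants, and the lowest mutant and highest control were equal to 2 decimals. Its change was 0.31 ± 0.12 (adjusted p = 0.270). Hoxb7 was 7.16, 6.94 and 6.99 in controls and 7.15, 7.48 and 7.33 in mutants, with an overlap through litter 1 and a change of 0.29 ± 0.11 (adjusted p = 0.269). The row shared by Hoxb8 and Hoxb7 stood at 0.19 ± 0.12 in the fit over all rows (adjusted p = 0.691), with differences of -0.02, 0.10 and 0.50 in litters 1 to 3. The first 3 genes of the cluster had smaller changes, with Hoxb1 at 0.03, Hoxb2 at 0.01 and Hoxb3 at 0.13.

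Hoxb9 came nearest to the threshold of all Hox genes. The controls of litters 1, 2 and 3 read 8.91, 9.23 and 9.02 and the mutants 9.27, 9.49 and 9.48. All mutants lay above all controls, and the difference was 0.37, 0.27 and 0.47 in litters 1 to 3. The change was 0.37 ± 0.08, or 1.29-fold (95% interval 0.17 to 0.56, adjusted p = 0.0584). The sign was thus the same in the 3 litters, which was not so for Hoxb5, Hoxb6 and Hoxb7. It passed the test when the dimmest 30% of genes were left out (adjusted p = 0.0405), with a robust, intensity-dependent variance prior (0.0405) and with array weights (0.0292). It did not pass under the other 11 alternatives, where its largest adjusted p was 0.472.

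Mir196a-1, a microRNA gene that lies between Hoxb13 and Hoxb9, rose. It was 8.42, 8.88 and 8.71 in controls and 9.25, 9.17 and 9.23 in mutants, so the mutants lay together above every control. The change was 0.55 ± 0.11, or 1.46-fold (adjusted p = 0.0393), with adjusted p = 0.0824 without litter 1 and 0.0694 without litter 3. The row is matched to the gene by its RefSeq accession and does not tell the mature microRNA from its precursor or from other RNA of that stretch. Mir196a-1 was the 1 gene of 10 measured noncoding RNA genes of the clusters that passed, with 0 that fell. Over all genes 3.77% passed. miR-196 microRNAs are known to repress Hox messages, Hoxb8 above all, and miR-10 microRNAs are likewise encoded inside Hox clusters. The mature forms are shown because the 2 families each have copies in different clusters; they are RefSeq sequences on GRCm38.p6, 5′ to 3′, with the seed (bases 2 to 8) in capitals.
miR-196a-5p, from Mir196a-1 on chr11:96265187-96265208 (plus strand) and also from Mir196a-2: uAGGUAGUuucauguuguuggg
miR-196b-5p, from Mir196b on chr6:52230129-52230150 (minus strand): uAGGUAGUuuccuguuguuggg
miR-10a-5p, from Mir10a on chr11:96317186-96317208 (plus strand): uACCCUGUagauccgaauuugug
miR-10b-5p, from Mir10b on chr2:74726074-74726096 (plus strand): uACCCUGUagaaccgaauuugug

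Within each family the seed was the same. miR-196a-5p and miR-196b-5p differ by A12C and miR-10a-5p and miR-10b-5p by U12A, counted from the 5′ end, with the first-named base first. The other copies did not pass: Mir196a-2 in HoxC stood at -0.13 ± 0.09 (adjusted p = 0.619) and Mir196b in HoxA at 0.14 ± 0.16 (adjusted p = 0.790). Mir10a, beside Hoxb4, stood at 0.27 ± 0.14 (adjusted p = 0.459), with 0.75, -0.03 and 0.10 in litters 1 to 3, and was among the dimmest 30% of genes.

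**Figure D2:**
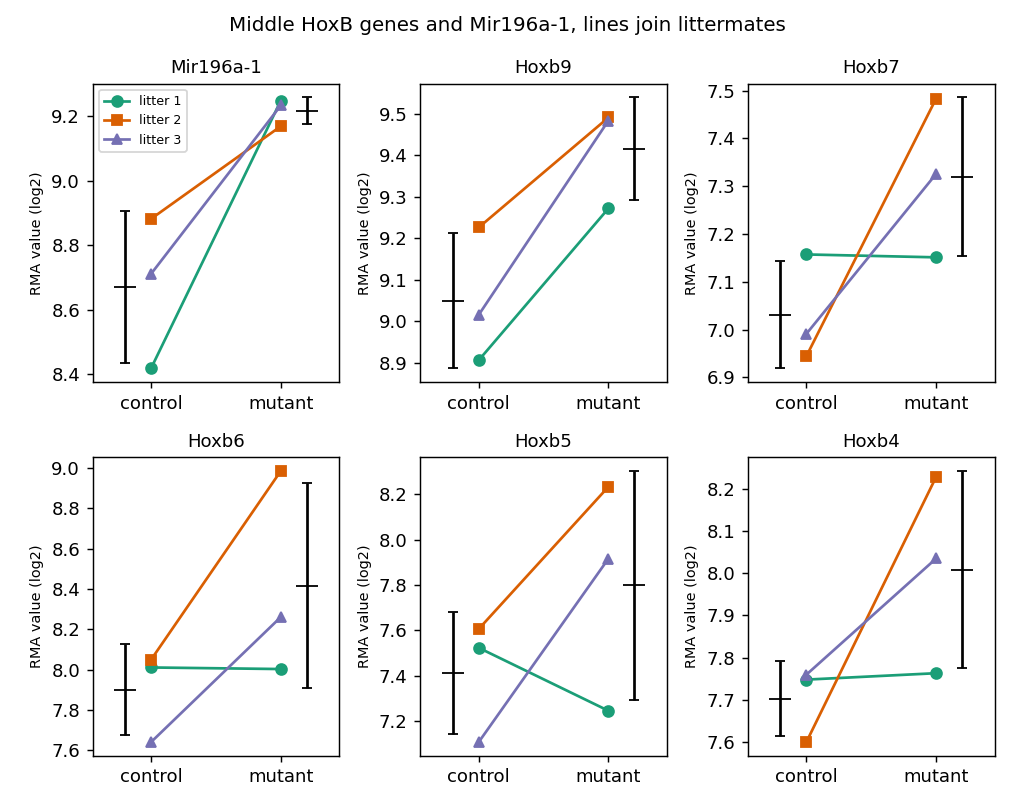
RMA values (log2, axes not from 0) of Mir196a-1 and 5 HoxB genes in control and mutant mice; lines join littermates and black marks are group mean and SD (n = 3 each). Mir196a-1 and Hoxb9 are higher in each mutant than in every control, while Hoxb5, Hoxb6 and Hoxb7 are higher in the mutants of litters 2 and 3 alone.

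The posterior HoxA genes stood on the low side. Hoxa9 was 9.14, 9.19 and 9.12 in controls and 9.14, 8.66 and 8.44 in mutants. The controls lay within a narrow range, mutant 1 was among them and mutants 2 and 3 were lower. The change was -0.41 ± 0.13 (95% interval -0.71 to -0.11, adjusted p = 0.163). Hoxa10 was 8.02, 8.13 and 8.08 in controls and 7.98, 7.85 and 7.64 in mutants, with a change of -0.25 ± 0.10 (adjusted p = 0.266). Hoxa13, a factor required for hindgut and urogenital development, was 7.84, 7.95 and 7.92 in controls and 7.77, 7.59 and 7.48 in mutants, with a change of -0.29 ± 0.10 (adjusted p = 0.196). For both Hoxa10 and Hoxa13 every mutant lay below every control, and litter 1 had the smallest difference. Hoxa11, which lies between them, stood at -0.03 ± 0.09 and was higher in the mutant of litter 2. Groups that did not overlap were found for 6 of 37 Hox genes, where 19.8% of all genes had them. These were Hoxa10, Hoxa13 and Hoxc11 (-0.06 ± 0.08) on the low side, and Hoxb4, Hoxb9 and Hoxc5 (0.22 ± 0.08, adjusted p = 0.256) on the high side.

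In paralog group 13, Hoxd13 and Hoxb13 differed widely between mice of the same genotype. Hoxd13 was 8.09, 8.13 and 9.04 in controls and 8.79, 7.50 and 8.54 in mutants. Control 3 was the highest array and mutant 2 the lowest, and within litters the mutant was 0.70 higher in litter 1 and lower by 0.63 and 0.50 in litters 2 and 3. The change was -0.14 ± 0.23 (adjusted p = 0.866). The standard deviation of the 3 controls was 0.536, at percentile 99.7 of all genes, and that of the 3 litter differences was 0.73, also at percentile 99.7. Hoxb13 was 8.61, 8.52 and 8.91 in controls and 8.92, 7.93 and 8.44 in mutants, the same order of litters as Hoxd13, with a change of -0.25 ± 0.16 (adjusted p = 0.575). Hottip, a long noncoding RNA gene next to Hoxa13, likewise had 0.36, -0.31 and -0.36 in litters 1 to 3 (adjusted p = 0.831). Hoxc13, a dim gene, stood at -0.11 ± 0.08 (adjusted p = 0.650). All 4 genes of the group were lower in the mutants of litters 2 and 3, and Hoxb13 and Hoxd13 were higher in that of litter 1.

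**Figure D3:**
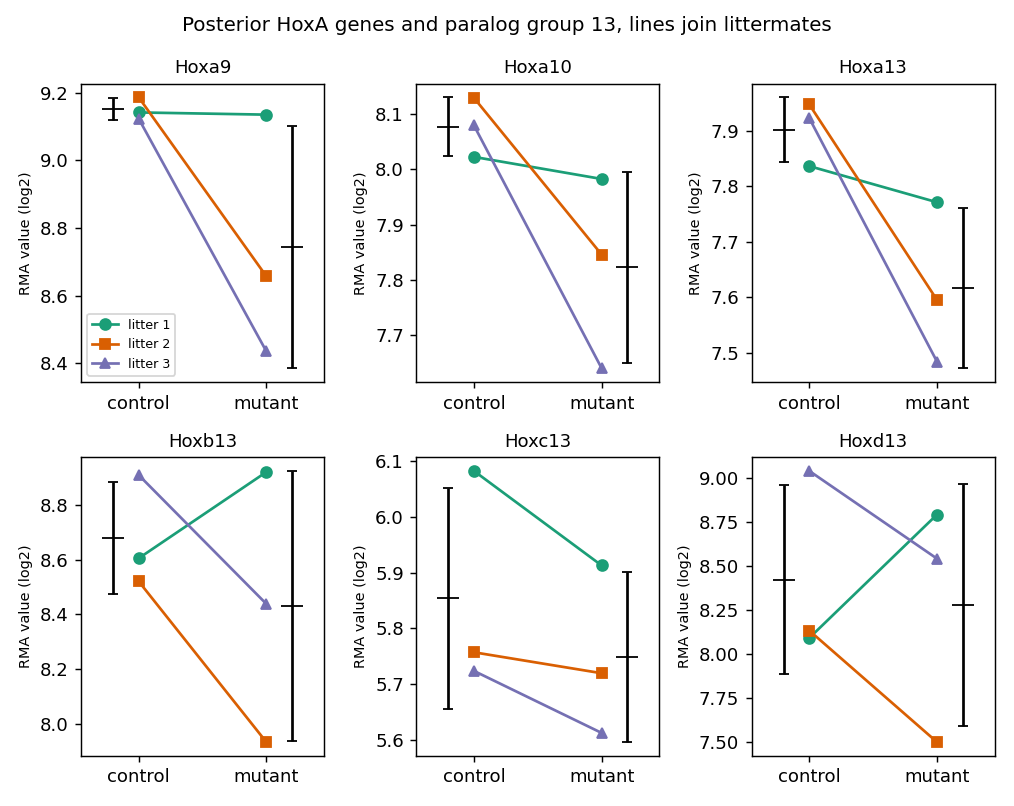
RMA values (log2, axes not from 0) of Hoxa9, Hoxa10 and the 4 genes of paralog group 13 in control and mutant mice; lines join littermates and black marks are group mean and SD (n = 3 each). Litter 1 is nearly flat for the HoxA genes and runs upward for Hoxb13 and Hoxd13, where litters 2 and 3 run downward.

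In 16 of 37 Hox genes litter 1 had the opposite sign to litters 2 and 3, a pattern seen in 26.1% of all genes. It was seen in 6 of 9 HoxB and 6 of 9 HoxD genes, and in 3 of 10 HoxA and 1 of 9 HoxC genes. Of the 37, 6 were higher and 7 lower in the mutant of all 3 litters, where 18.8% and 17.1% of all genes were. With litter 1 left out, 5 Hox genes passed, 3 lower (2.43% of all genes) and 2 higher (1.49% of all genes). Hoxa9 fell by 0.61 ± 0.09 (adjusted p = 0.0209), Hoxd13 fell by 0.57 ± 0.09 (0.0252) and Hoxb13 fell by 0.53 ± 0.08 (0.0292). Hoxb6 rose by 0.78 ± 0.10 (0.0170) and Hoxb5 rose by 0.72 ± 0.09 (0.0141). Litter 1 had the opposite sign in Hoxb5, Hoxb6, Hoxb13 and Hoxd13 and was nearly level in Hoxa9 (-0.01). These calls thus came from leaving out the littermates that differed from the others. With litter 2 or litter 3 left out 0 Hox genes passed. At an unadjusted limma p under 0.05 there were 14 Hox genes without litter 1, 3 without litter 2 and 2 without litter 3. The share of all genes at that level was not computed for these fits. A fit on 2 litters leaves 1 residual degree of freedom per gene and leans on the shared variance. Whether the change differs between litters was not tested, since each litter has 1 mouse per genotype. The share of all genes that fell or rose was 1.98% and 2.02% without litter 2, and 1.50% and 1.24% without litter 3. Array weights called 2 lower Hox genes (3.68% of all genes), Hoxa9 and Hoxa13, and 2 higher (2.57%), Hoxb6 and Hoxb9. The robust prior called 0 lower (2.52%) and 1 higher (1.88%), the filter on dim genes 0 lower (3.67%) and 1 higher (2.49%), and the fit without the litter block 0 lower (1.83%) and 0 higher (1.37%).

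**Figure D4:**
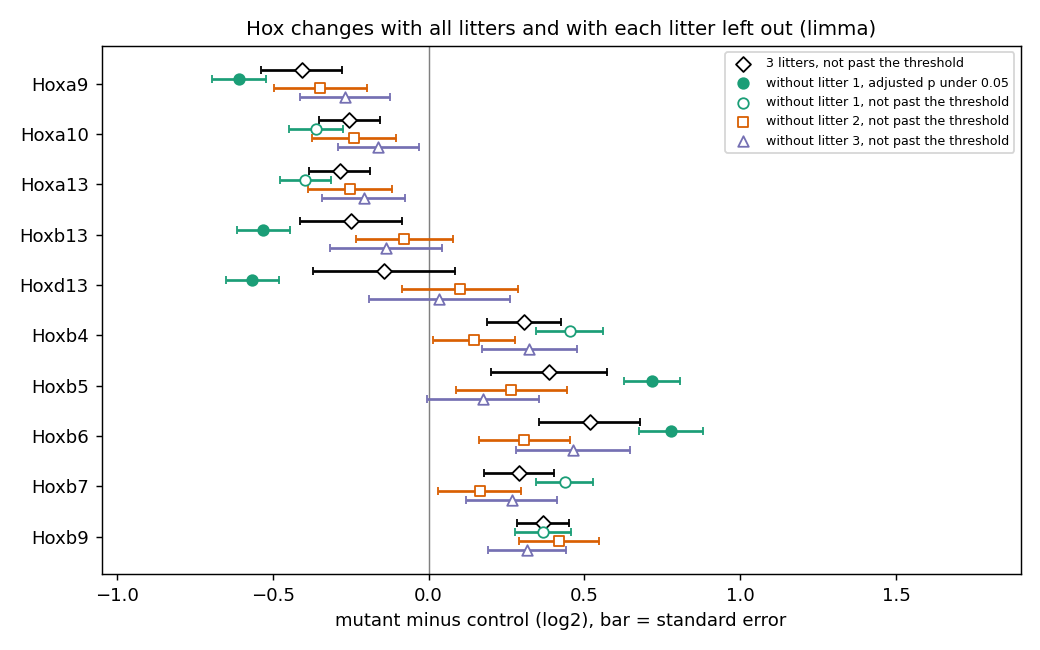
Change in 10 Hox genes (mutant minus control, log2; bars are standard errors) with all 3 litters and with each litter left out, from limma. Filled symbols are past the threshold; these are Hoxa9, Hoxb13, Hoxd13, Hoxb5 and Hoxb6 without litter 1, while Hoxb9 keeps nearly the same change in all 4 fits.

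Other genes differed by litter as well, and their part in the Hox values was not tested. Cdx2 was 9.73, 9.65 and 9.39 in controls and 9.31, 10.15 and 9.90 in mutants. It was lower in the mutant of litter 1 and higher in those of litters 2 and 3, as Hoxb5 was, with a change of 0.20 ± 0.17 (adjusted p = 0.716). Fabp6, the ileal bile acid binding protein, was 5.08, 5.39 and 5.41 in controls and 5.44, 7.79 and 5.86 in mutants, with mutant 2 far above the rest (adjusted p = 0.171). Of 11 small intestinal enterocyte markers 2 rose and 0 fell, where 1.66% of all genes rose and 2.11% fell. The mean log2 level of the 11 was 7.70 to 8.03 in controls and 8.13 to 8.32 in mutants. Unlike Fabp6, the 11 had their smallest median difference in litter 2, with 0.36, 0.09 and 0.30 in litters 1 to 3. In litter 2, 6 were higher and 5 lower in the mutant. Of 6 measured colon epithelium markers, Car4 and Aqp8 fell and Fxyd4 rose, with mean levels of 10.23 to 10.35 in controls and 9.95 to 10.33 in mutants. In all 3 litters 4 of the 6 were higher in the mutant and 2 were lower. The median differences of the 6 were 0.42, 0.26 and 0.60 in litters 1 to 3. Aqp8, a water channel of surface colonocytes, differed by -0.66, -1.78 and -1.44 in litters 1 to 3, the smallest difference being in litter 1, as for Hoxa9. Smooth muscle markers were lowest in litter 1, with medians of -0.75, -0.54 and -0.30 in litters 1 to 3. Enteric neuron markers had medians of -0.45, 0.21 and -0.03 and 0 of 9 passed. None had an unadjusted limma p under 0.05, where 15.1% of all genes did. Of 6 stratified squamous markers, which anal canal would bring, 0 passed and 0 had an unadjusted p under 0.05, with mean levels of 6.05 to 6.15 in controls and 6.02 to 6.15 in mutants. The stretch of colon taken from each mouse is not given in the labels.

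The remaining Hox genes had changes between -0.18 and 0.21. In the rest of HoxA, Hoxa5, a factor of gut mesenchyme and lung, stood at -0.18 ± 0.09 (adjusted p = 0.400) and had a lower value in all 3 mutants than in their littermates. Hoxa2, Hoxa3, Hoxa4, Hoxa6 and Hoxa7 lay between -0.08 and 0.05. In HoxC, Hoxc4 had the lowest change (-0.14 ± 0.08, adjusted p = 0.514), and Hoxc6 and Hoxc8 stood at 0.16 ± 0.09 and 0.21 ± 0.12. In HoxD, Hoxd4 had the highest change (0.17 ± 0.09, adjusted p = 0.472) and Hoxd11 the lowest (-0.15 ± 0.10, adjusted p = 0.595), while Hoxd3, Hoxd8, Hoxd9 and Hoxd10 stood at 0.00, -0.05, -0.04 and -0.01. The mutant of litter 2 was the higher littermate in 8 of 9 HoxD genes, all but Hoxd13, and that of litter 1 in 2 of 9, Hoxd12 and Hoxd13.

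No partner of Hox proteins, Polycomb or trithorax gene, ParaHox or Evx gene, or flanking gene on these lists passed in limma. Over all genes 3.77% passed and 15.1% had an unadjusted limma p under 0.05. Of 8 measured TALE cofactors, the Pbx, Meis and Pknox factors that bind DNA together with Hox proteins, 0 passed in limma and 0 had an unadjusted p under 0.05. The lowest p was that of Pknox1 (-0.18 ± 0.09, adjusted p = 0.389). Of 22 Polycomb and trithorax genes, whose products keep Hox clusters silent or active, 0 passed and 0 had an unadjusted p under 0.05. Of 8 ParaHox and Evx genes 0 passed and 1 had an unadjusted p under 0.05, the dim gene Cdx4 (0.34 ± 0.12, adjusted p = 0.208). Of 18 genes that flank the clusters 0 passed and 3 had an unadjusted p under 0.05, near the 15.1% of all genes. Ttll6, which lies beyond Hoxb13, was nearest with 0.66 ± 0.15 (adjusted p = 0.0535) and had 1.15, 0.42 and 0.41 in litters 1 to 3.

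Of 18 retinoic acid genes 1 fell, 0 rose and 17 did not pass. Rarb, the retinoic acid receptor that is itself induced by retinoic acid, was 7.73, 7.63 and 7.57 in controls and 7.21, 7.22 and 7.19 in mutants. All mutants lay below all controls and the change was -0.43 ± 0.08 (adjusted p = 0.0293), with adjusted p between 0.0544 and 0.0836 when any 1 litter was left out. Among enzymes that make retinoic acid, Aldh1a3 stood at 0.38 ± 0.08 (adjusted p = 0.0545) and Aldh1a2 at -0.43 ± 0.12 (adjusted p = 0.101). Of 13 homeobox factors of visceral mesenchyme outside the Hox clusters 2 fell and 0 rose, where 2.11% of all genes fell and 1.66% rose. Pitx1, a hindlimb and hindgut factor, fell by 0.97 ± 0.09 (adjusted p = 0.00162) and Nkx2-3, a factor of gut mesenchyme and its vessels, fell by 0.72 ± 0.09 (adjusted p = 0.00695). Both were lower in the mutant of each litter. Both factors passed in the main limma fit where no Hox gene did, but whether their changes differ from those of Hox genes was not tested. In the fit over all rows neither passed (adjusted p = 0.0764 for Pitx1 and 0.117 for Nkx2-3). Nor did they in the ordinary paired test (adjusted p = 0.434 and 0.460).

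Promoter sequence is shown for Hoxa9 and Hoxd13, which fell without litter 1, and for Hoxb4, a HoxB gene from the group above 0. There were 24 promoter entries of 22 Hox genes, Hoxb8 included, from RefSeq on GRCm38.p6. In HoxB only Hoxb1, Hoxb4 and Hoxb8 had an entry, and in HoxC only Hoxc4. Hoxb5, Hoxb6, Hoxb7, Hoxb9 and Hoxb13 had none, so the motif counts below do not cover all measured Hox genes. The 250 bases before the start site are given 5′ to 3′ on the gene's strand, with matches to the motifs searched in capitals.
Hoxa9, chr6:52227371-52227620 (minus strand): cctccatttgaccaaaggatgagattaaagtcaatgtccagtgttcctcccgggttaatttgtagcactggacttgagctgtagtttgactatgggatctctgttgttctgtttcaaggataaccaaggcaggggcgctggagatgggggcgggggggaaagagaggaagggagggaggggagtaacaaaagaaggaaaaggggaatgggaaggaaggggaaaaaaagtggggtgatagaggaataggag
Hoxd13, chr2:74667975-74668224 (plus strand): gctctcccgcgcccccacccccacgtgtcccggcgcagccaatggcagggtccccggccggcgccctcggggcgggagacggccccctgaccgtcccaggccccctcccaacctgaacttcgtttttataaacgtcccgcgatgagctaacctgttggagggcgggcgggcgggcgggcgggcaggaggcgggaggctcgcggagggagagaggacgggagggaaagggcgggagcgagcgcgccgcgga
Hoxb4, chr11:96318017-96318266 (plus strand): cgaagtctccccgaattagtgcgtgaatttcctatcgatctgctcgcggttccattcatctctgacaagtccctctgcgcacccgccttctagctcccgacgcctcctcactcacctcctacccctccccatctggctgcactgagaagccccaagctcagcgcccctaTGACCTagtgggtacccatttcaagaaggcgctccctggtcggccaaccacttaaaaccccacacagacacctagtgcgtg

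The motifs were TTTATG, bound by Cdx factors, AGGTCA, the core bound by retinoic acid receptors, and GACCACCCA, bound by Gli factors, each on both strands; no motif contains another. Hoxb4 held AGGTCA once, on the opposite strand, and Hoxa9 and Hoxd13 held no match in this window. TTTATG was found in 5 of 24 Hox promoters and in 10.8% of 32841 promoters of the same length, AGGTCA in 6 of 24 and in 14%, and GACCACCCA in 0 of 24 and in 0.225%. The Hoxa9 window held 3 CpG dinucleotides, the Hoxb4 window 14 and the Hoxd13 window 31.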

How the data were processed

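The deposited series table holds 35557 rows for 6 arrays, as log2 values that the authors made with RMA, per the submitters' processing notes; the sources used here do not give its version or the probe design's genome build. RMA quantile-normalizes, so changes are relative to the other genes. Of the rows, 21789 have 1 gene symbol in the platform annotation, 1621 several and 12147 are unnamed here. The highest-mean row per gene was kept, which left 19938 genes.

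Mutant and control were compared with limma 3.58.1 in R 4.3.3 (lmFit, eBayes, two-sided, Benjamini-Hochberg over all genes), with the litter as a fixed block because the design text pairs littermates. Littermates' departures from the group averages had correlations over genes of 0.0128, 0.00516 and 0.0613. Residual degrees of freedom were 2, and the shared prior added 5.85. Each litter was left out in turn. The fit was tested on simulated data. The outcome is not reported here, so it does not show that changes as small as those of the Hox genes would pass.

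The members and gene lists were chosen with earlier results of these data known. Genes named are the smallest p and the extreme changes of each cluster, paralog groups or neighbours given in full, hedgehog genes, and the smallest p or passing members of each list; Fabp6, Cdx2, Hottip and the miRNA copies were chosen after their values were seen. Precision is limited by 3 arrays per group.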

Additional observations from a re-analysis of the deposited data

How the results depend on the processing

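Against 751 genes called, with 0 lower and 0 higher Hox genes, array weights called 1246 genes, among them 2 lower (Hoxa9, Hoxa13) and 2 higher (Hoxb6, Hoxb9) Hox genes. A robust variance prior with an intensity trend, and leaving out the dimmest 30%, each called 1 higher Hox gene, Hoxb9. The fit over all rows of the table called 2 genes, and the ordinary paired test called 0 genes, with 1 Hox gene at an unadjusted p under 0.05; the cause was not tested. Leaving out each litter gave 546 to 798 genes, 0 to 3 lower and 0 to 2 higher Hox genes, all of the latter without litter 1. The mean change of Hoxd13 ran from -0.57 to 0.10 and that of Hoxa3 from -0.011 to 0.15 over these fits. Without the replicate block 638 genes were called, with 0 lower and 0 higher Hox genes and 8 at an unadjusted p under 0.05, and with the litter as a random block 803 genes and again 0 and 0. No other alternative called a Hox gene. Mir196a-1 lost its call under 4 and Rarb under 5 of 14 alternatives. Ptch1, Hhip, Gli1, Pitx1 and Nkx2-3 each lost theirs under 2, the fit over all rows and the ordinary paired test. The dim filter left Hoxc5 untested, and each Hox gene has 1 row, so the row choices change only the prior and the adjustment. The deposited values come without a measure of background or detection, so what dimness limits in the HoxC genes was not tested.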
